A study of Mus musculus with 6 samples.

Results

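The glucocorticoid-responsive genes described here are 9 mouse genes that the glucocorticoid receptor is known to induce in liver or other tissues: Tsc22d3, Fkbp5, Sgk1, Dusp1, Zbtb16, Klf9, Klf15, Mt1 and Mt2. They were taken by gene name from a table of 41838 genes, and all 9 were found. Messenger RNA was measured by poly(A) RNA sequencing in the livers of 3 Alkbh5-HKO mice, written Alkbh5-CKO in the sample titles and called HKO here, and of 3 Alkbh5flox/flox mice, called flox here, which carry the floxed gene. The ALKBH5 enzyme demethylates N6-methyladenosine in RNA, and the series asked how it affects the liver. Mice of both groups were on normal chow for 9 weeks per the labels' protocol, while the series text gives 9 weeks as their age, and the replicates are described as independent biological samples. The sources used here do not spell out HKO or CKO and do not give the Cre driver, the sex, the feeding state or the hour of collection. Blood glucocorticoid follows a daily rhythm and rises with handling.

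Glucocorticoids (corticosterone in mice) are released by the adrenal gland, enter hepatocytes and bind the glucocorticoid receptor, which a chaperone complex built on HSP90 holds in the cytosol. The bound receptor moves to the nucleus and attaches to glucocorticoid response elements, paired half-sites that face each other across a short gap. Several of its targets act back on the signal or on inflammation: FKBP5 is a co-chaperone that lowers the receptor's affinity for hormone, TSC22D3 (also called GILZ) restrains inflammatory transcription, and DUSP1 removes phosphate from MAP kinases. In liver the receptor also raises enzymes of amino acid breakdown and gluconeogenesis.

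Levels are given as the authors' FPKM, a read number divided by gene length and by library size, and this scale per length is used wherever levels of different genes are compared. Differences are HKO minus flox on log2(FPKM + 1), tested with limma and Benjamini-Hochberg (BH) adjustment over the 10453 genes whose FPKM averaged 1 or more. The 6 libraries held 14907384 to 17034754 recovered reads. Alkbh5 itself averaged 0.476 ± 0.0322 FPKM in HKO livers and 16.5 ± 1.56 FPKM in flox livers (SD, n = 3 each), a remainder of 2.89%. Hepatocyte markers were abundant in every library, with a summed level of 57064 to 59446 FPKM in HKO livers and 51579 to 61229 FPKM in flox livers over 10 markers. The sums of 3 of the 10 marker lists did not overlap between the groups, where 25.4% of all tested genes, taken singly, did not. They were 8 erythroid genes at 105 to 209 FPKM in HKO livers against 353 to 676 FPKM in flox livers, 10 T and NK cell genes at 4.70 to 7.18 FPKM against 1.94 to 3.26 FPKM, and 6 cholangiocyte genes at 20.7 to 23.3 FPKM against 26.2 to 36.4 FPKM. Only 5 of the erythroid, 2 of the T and NK cell and 1 of the cholangiocyte genes averaged 1 FPKM or more, so the last 2 sums rest on few genes. Each of these tested genes was apart between the groups. Of the 5 erythroid genes 1 was called lower by limma with BH adjustment, against 0.488% of all tested genes called. The part of these 3 lists in the results below was not tested, and in a bulk liver sample fewer cells of a type and less RNA per cell cannot be told apart.

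The start regions of the members show which of these genes carry a receptor half-site pair close to the first base of the transcript. Windows of 250 bases before the start were read from RefSeq (GRCm38.p6) for 8 of the 9 members, all but Zbtb16, with 15 windows in all because some genes have several starts. A script searched both strands for 4 motifs: the glucocorticoid response element as GNACA, any 3 bases and TGTNC; the metal response element as TGCACNC or TGCGCNC, the site of the zinc sensor MTF1; the cyclic AMP response element TGACGTCA; and the E-box CACGTG, a site that clock factors can bind. They were present in 0.387%, 21.4%, 1.55% and 6.02% of all 32851 windows, in that order. Of the 15 member windows 9 held none of them, and many known receptor sites lie outside such windows. A window with matches from each of 5 genes is printed 5′ to 3′ on the strand of the gene with every match in capitals. Positions count back from the start, with -1 the base before it. These starts need not be the first bases of the genes given below. The Mt1 and Klf15 windows end after the first base of the gene, and the Sgk1 window lies inside the gene.
Mt1 (chr8:94178839-94179088, plus strand): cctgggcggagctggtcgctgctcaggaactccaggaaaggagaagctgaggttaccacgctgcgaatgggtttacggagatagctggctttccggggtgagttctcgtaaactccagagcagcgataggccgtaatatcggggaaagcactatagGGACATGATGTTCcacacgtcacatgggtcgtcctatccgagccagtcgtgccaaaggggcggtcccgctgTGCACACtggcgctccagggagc
Mt2 (chr8:94172368-94172617, plus strand): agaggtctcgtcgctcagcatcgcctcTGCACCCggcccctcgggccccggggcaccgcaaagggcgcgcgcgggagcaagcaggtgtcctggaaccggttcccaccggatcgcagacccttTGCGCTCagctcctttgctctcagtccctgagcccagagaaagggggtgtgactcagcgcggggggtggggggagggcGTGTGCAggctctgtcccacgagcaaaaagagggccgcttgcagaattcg
Sgk1 (chr10:21993640-21993889, plus strand): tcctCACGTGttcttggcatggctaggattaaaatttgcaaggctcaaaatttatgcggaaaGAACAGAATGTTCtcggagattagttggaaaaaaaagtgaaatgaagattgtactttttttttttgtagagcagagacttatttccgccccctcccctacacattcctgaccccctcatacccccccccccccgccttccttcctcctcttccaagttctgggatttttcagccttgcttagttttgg
Dusp1 (chr17:26508473-26508722, minus strand): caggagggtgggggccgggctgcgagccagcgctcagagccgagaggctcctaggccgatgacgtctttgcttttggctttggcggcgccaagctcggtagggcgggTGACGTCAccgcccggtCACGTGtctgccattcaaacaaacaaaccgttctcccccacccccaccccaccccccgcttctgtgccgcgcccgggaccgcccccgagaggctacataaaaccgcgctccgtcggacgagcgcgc
Klf15 (chr6:90462326-90462575, plus strand): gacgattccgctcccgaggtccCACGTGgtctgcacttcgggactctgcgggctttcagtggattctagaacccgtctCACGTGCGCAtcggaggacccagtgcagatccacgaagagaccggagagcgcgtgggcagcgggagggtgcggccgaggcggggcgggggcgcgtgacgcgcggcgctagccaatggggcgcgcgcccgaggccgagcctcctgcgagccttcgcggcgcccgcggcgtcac
The Mt1 window held a glucocorticoid response element at -94 to -82 and a metal response element at -23 to -17. Mt2, its neighbour, held 3 metal response elements, which begin at -223, -128 and -50. In Sgk1, 1 of 6 windows held a glucocorticoid response element, at -188 to -176, with an E-box at -246 to -241. The Dusp1 window held a cyclic AMP response element at -143 to -136 and an E-box at -126 to -121. Klf15 held 2 E-boxes, at -228 and -172, and a metal response element at -169 that overlaps the second. The Fkbp5 window, not printed, held an E-box at -169 to -164. A match describes letters only, and the data hold no measurement of receptor binding.

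None of the 9 genes passed the test between HKO and flox livers. Of the 8 that reached the level for testing, 3 lay above and 5 below flox, the median difference was -0.21 on the log2 scale against -0.02 over all tested genes, and 0 were called by limma with BH adjustment or by voom on the recovered reads. Over all tested genes 0.488% were called. At an unadjusted p under 0.05 by limma, 1 of the 8 passed, Sgk1, against 17.0% of all tested genes. In 0 of the 9 genes were the 3 HKO values apart from the 3 flox values, against 25.4% of all tested genes. Several of these genes varied widely within a group: 5 of the 8 had a within-group SD in the top 10% of tested genes. So did 16 of 23 other glucocorticoid-induced genes, 8 of 15 clock genes, 6 of 11 immediate early genes and 6 of 17 acute phase genes from the lists described below. In the remaining lists the counts were 1 of 18 glucocorticoid signalling genes, 1 of 6 metal response genes and 4 of 21 relatives of the members.

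**Figure D1:**
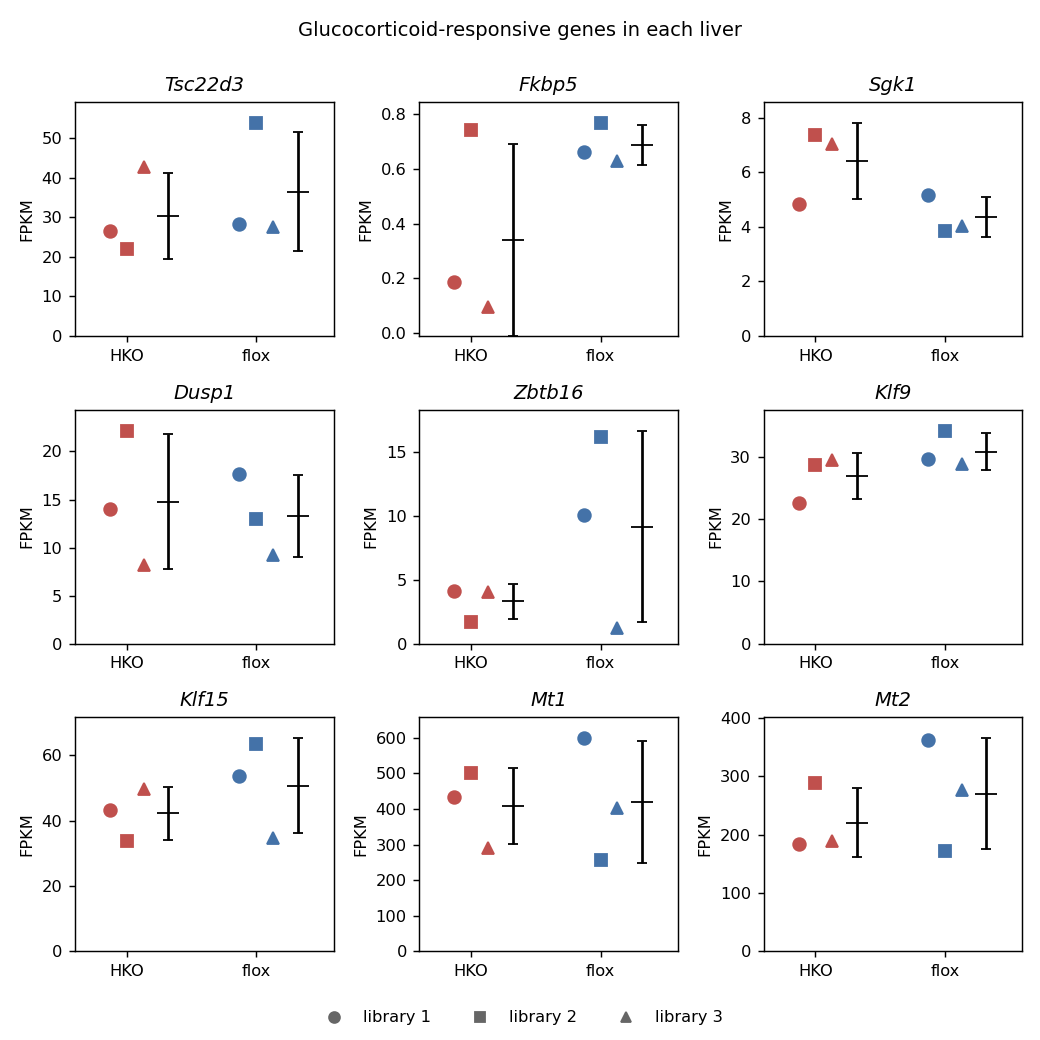
FPKM of each of the 9 genes (y axis, linear, 1 panel per gene) in HKO livers (red, left) and flox livers (blue, right), with 1 point per library and the shape giving the library number. Bars are mean ± SD of 3 libraries. In every panel the HKO and flox values overlap, and in Zbtb16 flox library 3 lies at 1.23 FPKM while flox library 2 lies at 16.1 FPKM.

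The order of mean levels per length was Mt1, Mt2, Klf15, Tsc22d3, Klf9, Dusp1, Zbtb16, Sgk1 and Fkbp5. The ranges over the 6 libraries were apart between Mt2 and Klf15, between Klf9 and Dusp1 and between Sgk1 and Fkbp5. The other neighbours overlapped. Within libraries Mt1 exceeded Mt2 and Klf15 exceeded Tsc22d3 in 6 of 6, whereas Tsc22d3 exceeded Klf9 in 3 of 6, Dusp1 exceeded Zbtb16 in 5 of 6 and Zbtb16 exceeded Sgk1 in 2 of 6.

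Among the feedback and signalling members, Tsc22d3 (chromosome X, 140539528 to 140600522, minus strand, GRCm38.p6) was at 26.5, 22.1 and 42.6 FPKM in HKO livers 1 to 3, against 28.3, 53.8 and 27.4 FPKM in flox livers 1 to 3. A single liver stood high in each group, HKO 3 and flox 2, and the remaining 4 lay close together. The means were 30.4 ± 10.8 FPKM in HKO livers and 36.5 ± 15.0 FPKM in flox livers (SD, n = 3 each), a log2 difference of -0.24 with a 95% interval of -1.01 to 0.53 (limma, BH adjusted p = 0.732). Without flox library 2 the difference was 0.07. Tsc22d3 has several starts that give proteins of different length, and the gene-level values do not separate them.

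Fkbp5 (chromosome 17, 28398753 to 28486149, minus strand) had 0.185, 0.744 and 0.0944 FPKM in HKO livers, against 0.662, 0.769 and 0.629 FPKM in flox livers. HKO livers 1 and 3 lay below every flox liver and HKO liver 2 lay among them. These levels stood on 23, 106 and 11 reads in HKO libraries and on 83, 83 and 80 reads in flox libraries. The exact 95% Poisson intervals, which cover counting error only, were 0.117 to 0.278, 0.609 to 0.900 and 0.0471 to 0.169 FPKM in the HKO libraries, against 0.527 to 0.821, 0.613 to 0.954 and 0.498 to 0.782 FPKM in the flox libraries. The spread among HKO livers, 7.88-fold between the highest and the lowest, was therefore wider than counting error, while flox livers differed by 1.22-fold. With a mean of 0.514 FPKM over the 6 livers Fkbp5 was below the level for testing. With no filter on low values its log2 difference was -0.36 (limma, BH adjusted p = 0.536).

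Sgk1 (chromosome 10, 21882184 to 21999903, plus strand), a kinase that raises sodium transport and acts downstream of PI3 kinase, was at 4.84, 7.38 and 7.06 FPKM in HKO livers, against 5.19, 3.84 and 4.05 FPKM in flox livers. HKO livers 2 and 3 were above every flox liver, and HKO liver 1 lay inside the flox range. The means were 6.43 ± 1.39 FPKM in HKO livers and 4.36 ± 0.723 FPKM in flox livers (SD, n = 3 each). The log2 difference of 0.46 (95% interval 0.04 to 0.89) had an unadjusted p of 0.0373 and an adjusted p of 0.256 (limma, BH), and the adjusted p lay between 0.161 and 0.551 in the alternatives. Sgk1 was the member with the lowest p.

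Dusp1 (chromosome 17, 26505591 to 26508472, minus strand), also an immediate early gene, was at 14.0, 22.2 and 8.14 FPKM in HKO livers, against 17.6, 12.97 and 9.18 FPKM in flox livers. Library 3 was the lowest of each group, and the log2 difference was 0.09 (95% interval -0.77 to 0.95, limma, BH adjusted p = 0.919). It was -0.24 without HKO library 2 and -0.14 without flox library 3. The summed level of 10 Kupffer cell markers, the resident macrophages of the liver, was 184, 320 and 190 FPKM in HKO livers, against 263, 171 and 249 FPKM in flox livers. This sum was highest in HKO 2, as was Dusp1, but the other livers did not follow the same order. Among flox livers the sum was lowest in flox 2 and Dusp1 in flox 3. Among HKO livers the sum was lowest in HKO 1 and Dusp1 in HKO 3. The part of Kupffer cells in the Dusp1 values was not tested.

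Among the transcription factors, Zbtb16 (chromosome 9, 48651797 to 48836381, minus strand), the zinc finger repressor PLZF, was at 4.12, 1.72 and 4.06 FPKM in HKO livers, against 10.1, 16.1 and 1.23 FPKM in flox livers. Flox livers 1 and 2 were above every HKO liver, and flox liver 3 was the lowest of all 6. The flox livers thus spanned 13.1-fold, and only 0.555% of tested genes had a larger within-group SD. The means were 3.30 ± 1.37 FPKM in HKO livers and 9.15 ± 7.50 FPKM in flox livers (SD, n = 3 each), and the log2 difference was -0.86 (SE 0.72, 95% interval -2.58 to 0.85, limma, BH adjusted p = 0.576). Without flox library 3 it was -1.74 with an adjusted p of 0.0845, the lowest among the alternatives of any member, and the adjusted p reached 0.899 at the other end of the Zbtb16 range.

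Klf9 (chromosome 19, 23141226 to 23166911, plus strand), which follows the daily glucocorticoid rhythm in several tissues, was at 22.6, 28.6 and 29.4 FPKM in HKO livers, against 29.5, 34.1 and 28.7 FPKM in flox livers. It was the steadiest member, with a larger within-group SD in 64.1% of tested genes, and its log2 difference was -0.20 (95% interval -0.55 to 0.16, limma, BH adjusted p = 0.541). Klf15 (chromosome 6, 90462545 to 90479170, plus strand), which drives amino acid breakdown and gluconeogenesis in liver, was at 43.2, 33.8 and 49.9 FPKM in HKO livers, against 53.8, 63.4 and 34.8 FPKM in flox livers. HKO 2 and flox 3 were low and flox 2 was high. Its log2 difference was -0.23 (95% interval -0.81 to 0.35, limma, BH adjusted p = 0.662).

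The metallothioneins bind zinc and copper and respond to metal and to inflammation as well as to glucocorticoid. Mt1 and Mt2 lie 5516 bases apart on chromosome 8. Mt1 (94179084 to 94180327, plus strand) was at 433, 502 and 292 FPKM in HKO livers, against 598, 256 and 402 FPKM in flox livers. Mt2 (94172618 to 94173567, plus strand) was at 184, 288 and 190 FPKM in HKO livers, against 362, 172 and 276 FPKM in flox livers. For both genes flox liver 1 was the highest and flox liver 2 the lowest of all 6. Flox liver 2 was also the highest of all 6 for Fkbp5, Tsc22d3, Zbtb16, Klf9 and Klf15, so that it stood at opposite ends for different members. The log2 differences were 0.01 for Mt1 (95% interval -0.78 to 0.80, limma, BH adjusted p = 0.987) and -0.26 for Mt2 (95% interval -0.97 to 0.45, limma, BH adjusted p = 0.69). Mt1 was at -0.05, -0.15 and -0.30 without HKO 1, HKO 2 and flox 2. The ratio of Mt1 to Mt2 FPKM was 2.35, 1.74 and 1.54 in HKO livers, against 1.65, 1.49 and 1.46 in flox livers. Its mean was 1.88 ± 0.425 in HKO livers and 1.53 ± 0.107 in flox livers (SD, n = 3 each), a difference of 0.345 that did not pass (two-sided exact permutation test, p = 0.2, where 3 against 3 cannot go below 0.1). HKO 1 held the highest ratio, and the difference was 0.106 without it and 0.515 without HKO 3.

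**Figure D2:**
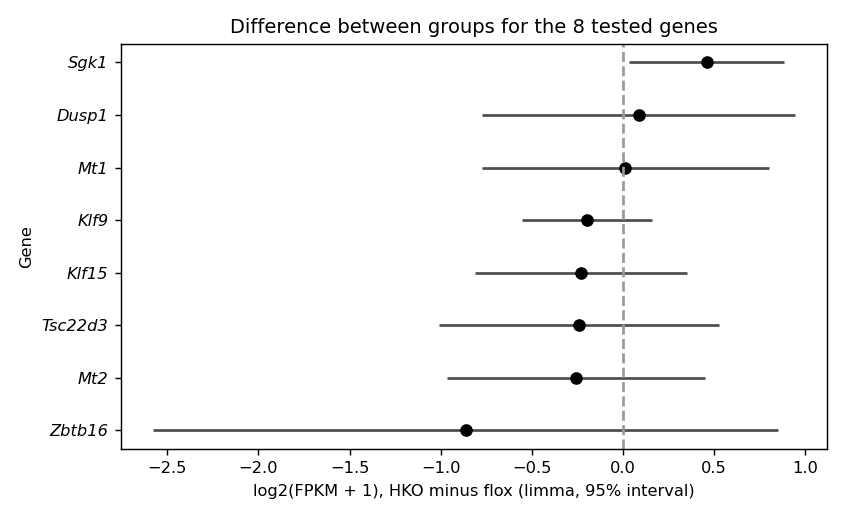
Log2 difference of FPKM + 1, HKO minus flox (x axis), with its 95% interval from limma for the 8 tested members (y axis, 1 row per gene). The interval of Sgk1, 0.04 to 0.89, lies above 0 before adjustment, that of Zbtb16 is the widest, and that of Klf9 the narrowest.

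**Figure D3:**
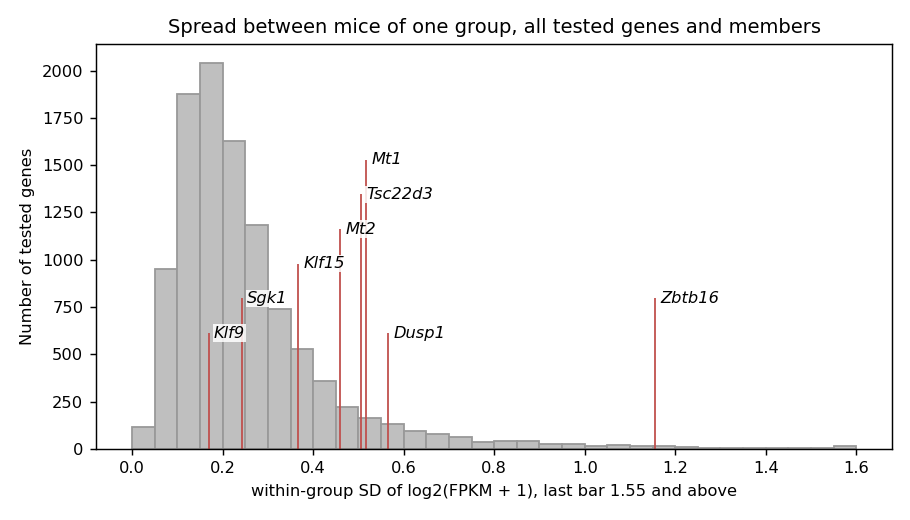
Number of tested genes (y axis) by within-group SD of log2(FPKM + 1) (x axis), with the 8 tested members marked by lines. Zbtb16, Dusp1, Mt1, Tsc22d3 and Mt2 lie in the top 10%, and 7 of the 8 lie above the median of 0.206.

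The within-group SD was larger in 5.66% of tested genes than in Dusp1, in 7.003% than in Mt1, in 7.46% than in Tsc22d3 and in 9.38% than in Mt2. It was larger in 16.5% than in Klf15 and in 38.7% than in Sgk1. The 9 members did not share 1 high or low liver. Within the flox group, library 3 was the lowest for 6 of the 9 genes and the highest for 0, while over all tested genes it was the lowest in 41.3%. For some of the 6 it lay close to flox 1: Fkbp5 (0.629 against 0.662 FPKM), Tsc22d3 (27.4 against 28.3 FPKM) and Klf9 (28.7 against 29.5 FPKM). Flox 2 was the highest of its group for 5 genes and flox 1 for 4. Within the HKO group, library 2 was the highest for 5 genes and the lowest for 3, and each of the other libraries was the lowest for 3.

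**Figure D4:**
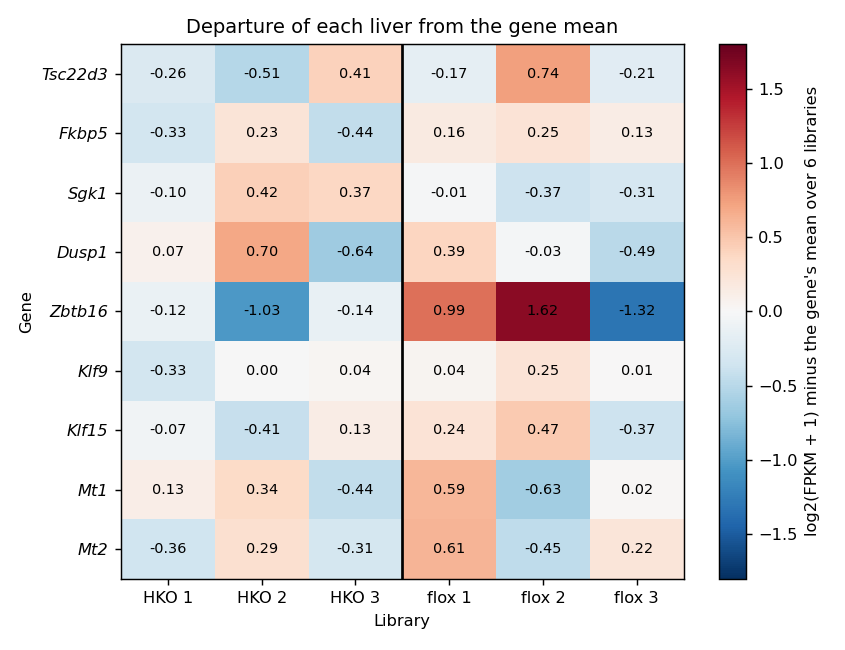
Departure of each library (columns, HKO left of flox) from the gene's own mean over the 6 libraries, on log2(FPKM + 1), for the 9 members (rows). Mt1 and Mt2 share a pattern, high in flox 1 and low in flox 2, while Zbtb16, Klf15 and Tsc22d3 are high in flox 2.

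The genes nearest in pattern were found for the 3 members with the widest spread. Likeness was measured as the root mean square difference of centred log2(FPKM + 1) over the 6 libraries among 9410 protein-coding genes, and gives a description only. Nearest to Zbtb16 were the endothelial lipase gene Lipg (0.28), Tat (0.363), which encodes the tyrosine aminotransferase long used as a marker of hepatic glucocorticoid action, and E030018B13Rik (0.386). Lipg was at 3.72, 2.20 and 5.19 FPKM in HKO livers, against 15.3, 15.8 and 2.51 FPKM in flox livers. Nearest to Dusp1 were the splicing factor gene Srsf3 (0.212), the macrophage metal transporter gene Slc11a1 (0.217) and the MAP kinase phosphatase gene Dusp6 (0.218). Nearest to Tsc22d3 were Prok1 (0.204), Gm10698 (0.217) and Baiap2 (0.217), whose product links small GTPases to actin.

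The supply and reception of the hormone were described with 18 genes of glucocorticoid signalling, all tested: 6 lay above flox and 12 below, with a median difference of -0.23, and 0 were called by limma with BH adjustment (4 at an unadjusted p under 0.05, and 2 called by voom, Serpina6 and Akr1d1). The 3 HKO and 3 flox values were apart in 8 of them (44.4%), 3 higher and 5 lower, against 25.4% of all tested genes. An unadjusted limma p under 0.05 was found for 17.0% of all tested genes. Nr3c1, the receptor, was at 12.6, 8.08 and 7.93 FPKM in HKO livers, against 7.28, 7.66 and 7.68 FPKM in flox livers. HKO 1 stood above the others, and the log2 difference was 0.27 (limma, BH adjusted p = 0.475). Hsd11b1, whose enzyme regenerates active corticosterone inside hepatocytes, averaged 265 ± 8.51 FPKM in HKO livers and 267 ± 33.6 FPKM in flox livers (SD, n = 3 each), with a log2 difference of -0.00 (limma, BH adjusted p = 0.993) whose sign turned under TPM, under the sum of recovered reads and under voom (0.07 in each). The median over all tested genes also moved there, from -0.02 to 0.05, 0.05 and 0.06.

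The largest differences of this list, at Akr1d1 and Serpina6, were higher in HKO livers, while 5 of the 8 genes whose groups were apart were lower. Serpina6, which encodes corticosteroid-binding globulin, the plasma carrier made by hepatocytes, was at 174, 195 and 177 FPKM in HKO livers, against 77.7, 105 and 89.3 FPKM in flox livers. Each HKO value was above each flox value. The log2 difference of 1.005 (SE 0.16) missed the threshold (limma, BH adjusted p = 0.0525), and it passed in 5 of 16 alternatives, with adjusted p-values of 0.0271 to 0.189. Akr1d1, a steroid reductase that inactivates glucocorticoids and also acts in bile acid synthesis, averaged 42.2 ± 12.4 FPKM in HKO livers and 18.2 ± 4.96 FPKM in flox livers (SD, n = 3 each), a log2 difference of 1.17 (limma, BH adjusted p = 0.0911). It passed in 1 of 16 alternatives, voom, with an adjusted p of 0.0478. The chaperone gene Hspa8, which helps load the receptor onto HSP90, averaged 291 ± 52.1 FPKM in HKO livers and 503 ± 83.5 FPKM in flox livers (SD, n = 3 each), a log2 difference of -0.79 (limma, BH adjusted p = 0.119).

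A further 26 genes that glucocorticoids are known to induce, most of them in liver, were listed, of which 23 were tested. Of these 8 lay above flox and 15 below, 0 were called by limma with BH adjustment or by voom (4 at an unadjusted limma p under 0.05, where all tested genes gave 17.0%), and 2 were apart between the groups (8.70%, against 25.4% of all tested genes). The median difference was -0.29, without flox library 3 it was -0.67, and without flox library 2 it was -0.16. Flox 3 was the lowest flox liver for 21 of the 23 and the highest for 0, against 41.3% and 33.5% of all tested genes. Among the members it was lowest for 6 of 9, but close to flox 1 in Fkbp5, Tsc22d3 and Klf9. Flox 2 was the highest flox liver for 14, and HKO 2 was the lowest HKO liver for 15.

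Tat was at 578, 427 and 803 FPKM in HKO livers, against 1888, 1708 and 468 FPKM in flox livers. The log2 difference was -0.98 (limma, BH adjusted p = 0.407), and flox 3 lay inside the HKO range while flox 1 and 2 lay far above it. Pck1, the gluconeogenic enzyme, was at 1219, 835 and 1206 FPKM in HKO livers, against 1825, 2146 and 980.0 FPKM in flox livers (log2 -0.55, limma, BH adjusted p = 0.414). Per1, a clock gene with receptor sites, was at 9.65, 8.67 and 11.2 FPKM in HKO livers, against 9.71, 12.6 and 4.85 FPKM in flox livers (log2 0.19, limma, BH adjusted p = 0.771), and without flox library 3 its difference was -0.16. In these 3 genes too flox 3 was the lowest flox liver.

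The 2 tested genes of that list whose groups were apart were G6pc and Pdk4. Angptl4 and Cdkn1a, both below the level for testing, were apart as well. Angptl4 averaged 0.189 FPKM in HKO livers and 0.496 FPKM in flox livers, and Cdkn1a 0.173 and 1.44 FPKM. G6pc, the last enzyme of glucose release, was at 101, 63.5 and 192 FPKM in HKO livers, against 328, 336 and 314 FPKM in flox livers. Its log2 difference of -1.59 had an adjusted p of 0.0997 (limma, BH), and of its 16 alternatives 1 passed, without HKO library 3 (adjusted p = 0.0386, within a range of 0.0386 to 0.284). Pdk4, the kinase that holds back pyruvate oxidation, was at 0.525, 0.395 and 0.464 FPKM in HKO livers, against 9.35, 1.23 and 2.07 FPKM in flox livers (log2 -1.50, limma, BH adjusted p = 0.22). Flox 1 was far above the others, and without it the log2 difference was -0.84. With a pseudocount of 0.1 it was -2.43, with 5 it was -0.65, and voom gave -2.60.

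**Figure D5:**
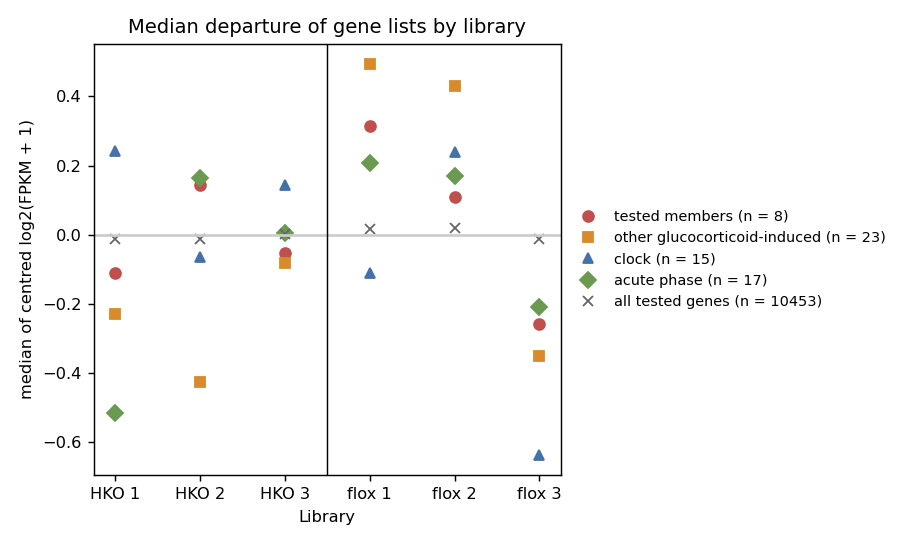
Median over the genes of a list of the departure of each library from the gene's own 6-library mean, on log2(FPKM + 1) (y axis), for the 8 tested members, 3 other lists and all tested genes, by library (x axis, HKO left of flox). The other glucocorticoid-induced genes lie at -0.23, -0.42 and -0.08 in HKO livers and at 0.49, 0.43 and -0.35 in flox livers, and the clock genes reach -0.64 in flox 3.

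Other inputs that move the members were described with the same counts. Of the 10 listed genes of the metal response 6 were tested, 2 above and 4 below flox, with 0 called by limma with BH adjustment or by voom and a median of -0.27. At an unadjusted limma p under 0.05 there were 2, against 17.0% of all tested genes. The groups were apart in 2 of the 6 (33.3%, against 25.4% of all tested genes), Mtf1 and Gclc. The median was -0.12 without flox library 3, -0.16 without flox library 1 and -0.03 over the 4 genes with a mean of at least 5 FPKM. Mt3 and Mt4, the metallothioneins of brain and of squamous epithelium, were listed at 0 in all 6 libraries. Mtf1, the zinc sensor, averaged 1.78 ± 0.376 FPKM in HKO livers and 2.65 ± 0.294 FPKM in flox livers (SD, n = 3 each), a log2 difference of -0.40 (limma, BH adjusted p = 0.238). Gclc, a glutathione synthesis enzyme that MTF1 can induce, was at 79.8, 80.1 and 68.7 FPKM in HKO livers, against 37.3, 35.5 and 68.6 FPKM in flox livers (log2 0.74, limma, BH adjusted p = 0.211). Flox 3 was level with HKO 3 there.

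Immediate early genes rise within minutes of tissue stress, and 11 of 19 were tested: 5 lay above and 6 below flox, with 0 called by limma with BH adjustment or by voom (1 at an unadjusted limma p under 0.05) and a median of -0.14. Its sign turned without HKO library 1 (0.08) and without flox library 1 (0.02), and it was -0.23 without HKO library 2. HKO 2 was the highest HKO liver for 8 of the 11, as it was for Dusp1, and flox 3 the lowest flox liver for 7. Over all tested genes these shares were 28.6% and 41.3%. The groups were apart in 1 of the 11 (9.09%, against 25.4% of all tested genes). That gene, Klf6, had 2.67 ± 0.425 FPKM in HKO livers and 1.48 ± 0.617 FPKM in flox livers (SD, n = 3 each, log2 0.59, limma, BH adjusted p = 0.216). Of 17 tested acute phase genes, which interleukin signals and glucocorticoid raise together in hepatocytes, 6 lay above and 11 below flox, with 0 called by limma with BH adjustment or by voom (3 at an unadjusted limma p under 0.05) and a median of -0.29. The median was -0.02 without HKO library 1, -0.14 without HKO library 3, -0.19 without flox library 2 and -0.49 without HKO library 2. Flox 3 was the lowest flox liver for 14 of them and HKO 1 the lowest HKO liver for 10, against 41.3% and 41.1% of all tested genes. The groups were apart in 2 of the 17 (11.8%, against 25.4% of all tested genes). These were Saa3, with a log2 difference of -0.73 (limma, BH adjusted p = 0.152), and Crp, with 0.30 (limma, BH adjusted p = 0.377). Over all tested genes 17.0% had an unadjusted limma p under 0.05.

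The clock list held 15 tested genes, 12 above and 3 below flox (48.0% of all tested genes lay above), with a median of 0.29. At an unadjusted limma p under 0.05 there were 2, against 17.0% of all tested genes, and 3 were apart (20%, against 25.4%). Of the 15 genes 1 was called by limma with BH adjustment, against 0.488% of all tested genes. That gene, Nfil3, a repressor of the clock output that competes with PAR bZIP factors, was lower in HKO livers: it was at 1.90, 1.997 and 1.82 FPKM in HKO livers, against 4.36, 5.23 and 5.88 FPKM in flox livers, with a log2 difference of -1.08 (limma, BH adjusted p = 0.0372). Without flox library 3 the median of the list was 0.04, with 9 genes above and 6 below, without HKO library 1 it was 0.20, and without flox library 2 it was 0.58. The Nfil3 call held in 6 of its 15 alternatives, among them median-of-ratios scaling, which nearly repeats the main fit. The call was lost whichever single library was left out. Per3 (log2 0.72, limma, BH adjusted p = 0.159) and Clock (log2 -0.45, limma, BH adjusted p = 0.37) were the other tested genes whose groups were apart. Flox 2 was the highest flox liver for 13 of the 15 and flox 3 the lowest for 11. Arntl, the partner of CLOCK, was below the level for testing and was chosen after its values were seen. It was at 0.0873, 0.610 and 0.466 FPKM in HKO livers, against 0.108, 0.151 and 1.77 FPKM in flox livers. Arntl was thus highest in flox 3, the liver in which Zbtb16, Tat and Per1 were low among the flox livers. The part of the hour of collection in these values was not tested.

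Relatives of the members that are not standard receptor targets served as a further description: of 21 tested, 12 lay above and 9 below flox, 0 were called by limma with BH adjustment or by voom, and the median was 0.05. At an unadjusted limma p under 0.05 there were 3, against 17.0% of all tested genes. The groups were apart in 4 (19.0%, against 25.4% of all tested genes). The kinase gene Sgk3 averaged 3.28 ± 0.948 FPKM in HKO livers and 1.58 ± 0.281 FPKM in flox livers (SD, n = 3 each), a log2 difference of 0.71 (limma, BH adjusted p = 0.129), in the same direction as Sgk1. The phosphatase gene Dusp3 averaged 6.33 ± 1.02 FPKM in HKO livers and 11.5 ± 2.96 FPKM in flox livers (SD, n = 3 each), a log2 difference of -0.75 (limma, BH adjusted p = 0.128). Klf12 had a log2 difference of 0.30 (limma, BH adjusted p = 0.338). Flox 3 was the lowest flox liver for 7 of the 21 and the highest for 10, against 41.3% and 33.5% of all tested genes.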

How the data were processed

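Poly(A) RNA from 6 livers was sequenced in pairs on an Illumina NovaSeq, per the labels' protocols. The submitters' processing notes name HISAT2 2.0.5, featureCounts 1.5.0-p3, DESeq2 1.20.0, CASAVA and the build GRCm38.p6. The sources used here give no strand setting, so reads of overlapping genes could be shared: the genes that overlap Fkbp5, Sgk1, Zbtb16 and Klf9 held 11, 0, 78 and 21 reads over the 6 libraries.

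The authors deposited FPKM. FPKM times gene length was a whole multiple of 1 step for 100% of values (tolerance 0.001), which gave back the reads, and the authors' library sizes (0.925 to 1.08 times the sum of reads) equal median-of-ratios size factors of those reads. A pseudocount of 1 was added and genes whose mean FPKM was 1 or more were tested with limma 3.58.1 (trend and robust; R 4.3.3, statmod 1.5.0), with Benjamini-Hochberg adjustment at 0.05, no covariate and 95% intervals. The added 1 understates differences of low genes. Confidence intervals on reads are exact Poisson and cover counting error only.

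The 9 members and the gene lists (7 by function, 10 by cell type) were chosen with earlier results of these data known. The rule for named genes took the members, Alkbh5, 5 genes by name (Nr3c1, Hsd11b1, Per1, Tat and Pck1), genes of a list that passed, the 3 largest differences of a list among genes whose groups did not overlap, and the nearest genes of the 3 most variable members. A current gene symbol was never read as an older synonym of another gene.

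On simulated reads of this comparison (10320 genes) limma called 57 of 96 genes changed 2-fold, 88 of 91 changed 4-fold and 11 of 10133 unchanged. The simulation moved each gene's spread toward the median spread, so these rates do not apply to genes as variable as most members. Alternatives were a pseudocount of 0.1 or 5, either no filter or a minimum average of 5 FPKM, TPM, median-of-ratios scaling, limma without trend and robust, voom on the recovered reads, the replicate block and each library left out; a rescale to the sum of reads was chosen after seeing the data. Median-of-ratios scaling divided every library by the same 1.008, because the FPKM already carry those factors, so it nearly repeated the main fit. Within each group, pairs of libraries differed by a chi-square of 28.3 to 63.0 per degree of freedom, so none was a copy. Figures were drawn with Python 3.11.15 and matplotlib 3.10.9.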

Additional observations from a re-analysis of the deposited data

How the results depend on the processing

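No member was called in any alternative, and adjusted p-values ran from 0.0845 to 0.993 (limma or voom, BH). Of 137 recomputed member differences, 129 kept direction and call, 2 moved (Fkbp5, -1.12 at a pseudocount of 0.1 and -0.09 at 5) and 6 reversed, all with 1 library left out: Tsc22d3 ranged from -0.50 to 0.069, Mt1 from -0.30 to 0.31 and Dusp1 from -0.24 to 0.43. Hsd11b1 was 0.0745 under TPM, 0.0717 under the sum of recovered reads (added after the data were seen) and 0.0737 under voom, and ranged from -0.10 to 0.0856 over libraries left out; Per1 ranged from -0.16 to 0.45. Over libraries left out Klf15 ranged from -0.47 to -0.05, Mt2 from -0.55 to -0.01, Tat from -1.62 to -0.62 and Pck1 from -0.89 to -0.32. Over all genes, against 28 higher and 23 lower, a pseudocount of 0.1 gave 18 higher, no filter 0 higher and 1 lower (23371 tested), and voom 78 and 42. Leaving out 1 library gave 0 to 29 higher and 1 to 38 lower, with the smallest number of shared calls, 1, without HKO 2, flox 1 or flox 2. The replicate numbers did not pair the livers (correlations of 0.153, -0.145 and -0.0514), and the replicate block gave 1 higher and 8 lower with no member called. The median over all tested genes was -0.0153 in the main fit, 0.0516 under TPM, 0.0454 under the sum of recovered reads and 0.0583 under voom. The cause of the other changes was not tested, except that no filter adds tests, a left-out library removes samples and a rescale of libraries moves all genes together. Low reads limit Fkbp5.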
